A study of Mus musculus with 16 samples.

Results

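Runx2, Gli3, Egfr and Klf15 are protein-coding genes that earlier work reported as targets of the microRNA miR-133. They were taken from the expression table by matching its Ensembl identifiers to these symbols, and all 4 were found among its 831 genes. RNA was sequenced from whole tibialis anterior, a fast leg muscle, of mice at postnatal day 30. Each of 4 groups had 4 libraries: Control mice, labelled wild type; miR-133b-/- mice, which lack the microRNA miR-133b and carry intact dystrophin; mdx mice, whose Dmd mutation removes dystrophin, labelled mdx-/-; and mdx/miR-133b-/- mice, which carry both changes. The labels give no sex, strain background, or number of animals behind a library, and the p-values below measure only the spread between libraries, part of which may be technical. The labels name no Cre driver or promoter, and whole muscle mixes fibres with interstitial and immune cells.

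A microRNA guides the silencing complex to messenger RNAs that pair with its seed, the bases near its 5′ end, mostly in the 3′ untranslated region (UTR), and the paired transcripts are degraded or translated less. miR-133b is made in skeletal muscle from a locus it shares with miR-206, and miR-133a, which has the same seed, is made from other loci, so the loss of miR-133b leaves a microRNA of that seed in place. Runx2 is a transcription factor of bone formation, Gli3 is a transcription factor of the Hedgehog pathway, Egfr is a receptor tyrosine kinase for epidermal growth factor and its relatives, and Klf15 is a transcription factor of lipid and amino acid use in muscle.

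The sequences below show where the seed of miR-133b can pair with these genes. The microRNA is the mature mouse sequence from RefSeq (GRCm38.p6, chr1:20682834-20682855, plus strand), with its seed, positions 2 to 8 from the 5′ end, in capitals. The sites come from the longest 3′ UTR that GENCODE M21 annotates for each gene (GRCm38), with the matching bases in capitals, read on the strand of the gene. Matches to GGACCAA (positions 2 to 8, 7mer-m8), GACCAAA (positions 2 to 7 followed by A, 7mer-A1), GGACCAAA (both, 8mer) and GACCAA (positions 2 to 7 alone, 6mer) were searched on the transcript strand only, and each site was given its longest class.
mmu-miR-133b-3p: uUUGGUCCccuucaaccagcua
Runx2, 7mer-A1, chr17:44605006-44605033, minus strand: gatttgtggttttaaGACCAAAgcaatg
Egfr, 7mer-m8, chr11:16911893-16911920, plus strand: ctttctagaatcccaGGACCAActatgg
Egfr, 7mer-A1, chr11:16912682-16912709, plus strand: aaccatcagtattgtGACCAAAagcctt
Egfr, 7mer-m8, chr11:16918071-16918098, plus strand: tttgtggtgctgtgtGGACCAAtgagct
Gli3, 6mer, chr13:15727160-15727186, plus strand: aattggtgggcttgtGACCAAggggta
Gli3, 6mer, chr13:15727619-15727645, plus strand: tttggtacgaagttaGACCAAttatag

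Runx2 held 1 match of 7 bases, at base 2887 of a 3′ UTR of 3904 bases. Egfr held 3, at bases 53, 842 and 6231 of 6303. The 3′ UTR of Gli3, 3245 bases long, held no match of 7 or 8 bases and 2 of 6 bases, at bases 394 and 853. Klf15 held none of any class in its 1084 bases, nor in any of its 5 annotated 3′ UTRs, and no member held an 8mer in its 3′ UTR. The matches were in 2 of the 6 annotated 3′ UTRs of Runx2, 1 of the 3 of Egfr and 1 of the 2 of Gli3, so they depend on which transcript ends the muscle uses, which the values per gene do not show.

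**Figure D1:**
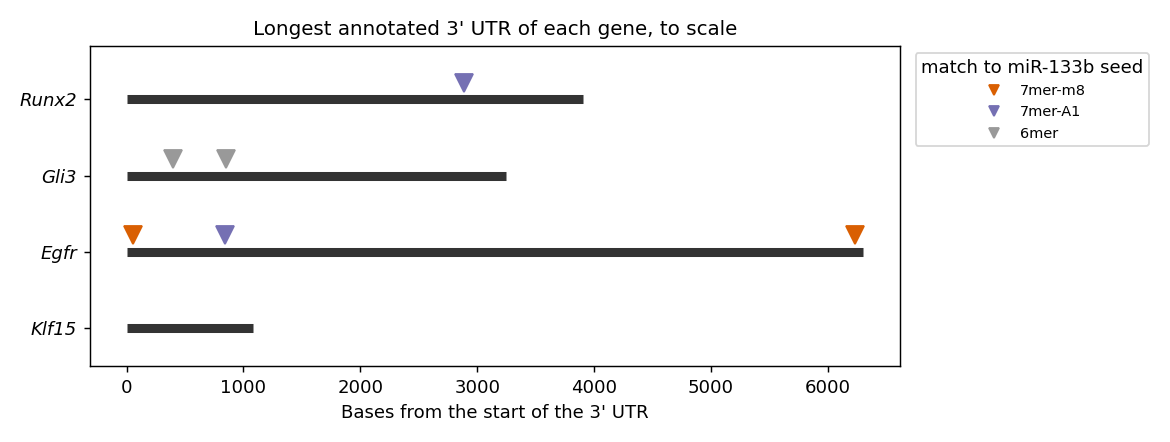
Matches to the miR-133b seed along the longest annotated 3′ UTR of each gene, drawn to scale in bases from the start of the 3′ UTR; triangles mark matches, coloured by class. Egfr has 3 matches of 7 bases spread over its 3′ UTR, Runx2 has 1, Gli3 has 2 matches of 6 bases and Klf15 has none.

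Long 3′ UTRs hold such matches often. Of the 21021 protein-coding genes with an annotated 3′ UTR, 13.6% held a match of 7 or 8 bases, and of the 778 such genes among those listed, 15.6% did. Among 3′ UTRs within 20% of the length of the member's own, the share was 43.6% of 576 for Egfr, 31.2% of 1630 for Runx2, 27.3% of 2103 for Gli3 and 11.5% of 2766 for Klf15. Having 3 or more matches, as Egfr does, was less common, at 3.47% of 3′ UTRs of its length. A match of 6 or more bases, as in Gli3, was in 47.8% of 3′ UTRs of that length.

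The coding sequence of Gli3 held the only 8mer found in a member. The Gli3 coding sites with 7 or more matching bases are shown because its 3′ UTR has none of that length.
Gli3, coding 8mer, codon 771, chr13:15723633-15723661, plus strand: ggagaaacccggcagGGACCAAAtggatg
Gli3, coding 7mer-A1, codon 1448, chr13:15726356-15726383, plus strand: tccggtcagttctatGACCAAAccatgg
An 8mer was in 13.3% of the 802 coding sequences within 20% of the length of that of Gli3. Egfr held a coding 7mer-A1 at codon 210 whose window spans an exon junction, and 40.8% of the 1467 coding sequences of like length held a match of 7 or 8 bases. The coding sequences of Runx2 and Klf15 held no match of any class.

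Levels are given as scaled reads, which are read counts multiplied by the authors' factor for each library. The 831 genes are a selection: each has a ratio of 1.72-fold or more, either way, between its means in mdx/miR-133b-/- and miR-133b-/-. That difference is therefore described below without a test, and mdx against Control is the only comparison that uses neither group. The others use 1 or both groups, so the selection may favour differences there, and their p-values are a description. The selecting pair also differs in the Dmd mutation, so genes that respond to it may be favoured in mdx against Control as well. The lowest mean of a gene over the 16 libraries was 50.1 scaled reads, so a cut on the mean may also have been used. Runx2, with means of 25.0 in Control and 37.2 in miR-133b-/-, lies above that level through the groups with the Dmd mutation. Its rise in mdx may therefore be favoured by such a cut. Reads in the listed genes numbered 2356990 to 6000033 per library, and the full depth is unknown. The description field of 14 of the 16 samples names the code of another sample; libraries were grouped by title, and grouping by description gave 0 genes called in mdx against Control in place of 550. The genotypes could not be checked from the values, since Dmd, Utrn and Mir133b, which are not in the list, were not analysed here. The fast-muscle genes Myh4, Ckm and Actn3 ranked 1, 6 and 10 by mean scaled reads among the 831. Each difference below is a log2 difference of scaled reads with 1 added, from limma's moderated test on all 16 libraries, with Benjamini-Hochberg adjustment over the 831 genes, and a gene is said to rise or fall only at an adjusted p at or below 0.05.

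Runx2 (ENSMUSG00000039153, chr17:44495987-44814797, minus strand) rose in mdx muscle and stood higher still in mdx muscle without miR-133b. Its scaled reads were 13.6, 26.5, 30.7 and 29.1 in Control 1 to 4. In miR-133b-/- 1 to 4 they were 32.0, 35.0, 47.8 and 34.1. The mdx libraries held 84.1, 83.8, 88.8 and 120.1. None of these 3 groups overlapped another, but miR-133b-/- 1, at 32.0, lay just above Control 3, at 30.7. It held 32 unscaled reads at a factor of 1, and Control 3 held 42 at a factor of 0.731. The separation of Control from miR-133b-/- therefore rests on the scaling. The values in mdx/miR-133b-/- 1 to 4 were 143, 159, 228 and 226, again above every other library. The order Control, miR-133b-/-, mdx, mdx/miR-133b-/- without overlap between neighbours was found in 1 of the 831 genes, Runx2 itself; that pattern was counted after its values were seen and is a description.

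Control libraries averaged 25.0 ± 7.80 scaled reads of Runx2, miR-133b-/- libraries 37.2 ± 7.17, mdx libraries 94.2 ± 17.4 and mdx/miR-133b-/- libraries 189 ± 44.5 (SD, n = 4 each). These rest on few reads at the low end, 19 to 42 unscaled reads per library in Control and 32 to 72 in miR-133b-/-. Exons of Runx2 share 519 of 8837 bases with the antisense gene Runx2os1, and whether counting used strand is not given in the sources used here, so reads of the antisense gene may be included.

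Gli3 (ENSMUSG00000021318, chr13:15463235-15730026, plus strand) was highest in mdx/miR-133b-/-. Its scaled reads were 56.5, 85.3, 91.4 and 107 in Control 1 to 4. In miR-133b-/- 1 to 4 they were 83.0, 126, 54.4 and 69.2. In mdx 1 to 4 they were 122, 127, 76.7 and 119. These 3 groups overlapped one another, with mdx 3 below the other mdx libraries and miR-133b-/- 2 close to them. The values in mdx/miR-133b-/- 1 to 4 were 151, 168, 172 and 167, above every other library and close together, with a coefficient of variation of 5.42%. Group means were 85.2 ± 21.3, 83.1 ± 30.7, 111 ± 23.1 and 164 ± 8.90 scaled reads in that order of groups (SD, n = 4 each). Gli3 shares 188 of its 9589 exon bases with the antisense gene Gm6556.

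Egfr (ENSMUSG00000020122, chr11:16752203-16918158, plus strand) also had its highest mean in mdx/miR-133b-/-. The Control libraries held 245, 411, 377 and 476 scaled reads. In miR-133b-/- 1 to 4 the values were 591, 530, 255 and 294. In mdx 1 to 4 they were 492, 509, 626 and 461. The miR-133b-/- group fell apart, its libraries 1 and 2 above every Control library and 3 and 4 within the Control range. The values in mdx/miR-133b-/- 1 to 4 were 661, 625, 986 and 1024, with mdx 3 between the lower pair. The mean was 377 ± 97.3 in Control and 418 ± 168 in miR-133b-/-, against 522 ± 72.2 in mdx and 824 ± 210.0 with both changes (SD, n = 4 each).

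Klf15 (ENSMUSG00000030087, chr6:90462576-90475238, plus strand) went the other way, with lower means in both groups that carry the Dmd mutation. Its scaled reads were 157, 173, 403 and 552 in Control 1 to 4. In miR-133b-/- 1 to 4 they were 169, 496, 430 and 435. Control 1 and 2 and miR-133b-/- 1 lay far below the other libraries with dystrophin. In mdx 1 to 4 the values were 192, 125, 186 and 97.1, and in mdx/miR-133b-/- 1 to 4 they were 142, 111, 185 and 149. Those 8 libraries overlapped the 3 low ones and lay below the other 5. The mean was 321 ± 191 in Control and 383 ± 146 in miR-133b-/-, against 149.9 ± 46.5 in mdx and 147 ± 30.2 with both changes (SD, n = 4 each). The exons of Egfr and Klf15 overlap no other annotated gene.

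**Figure D2:**
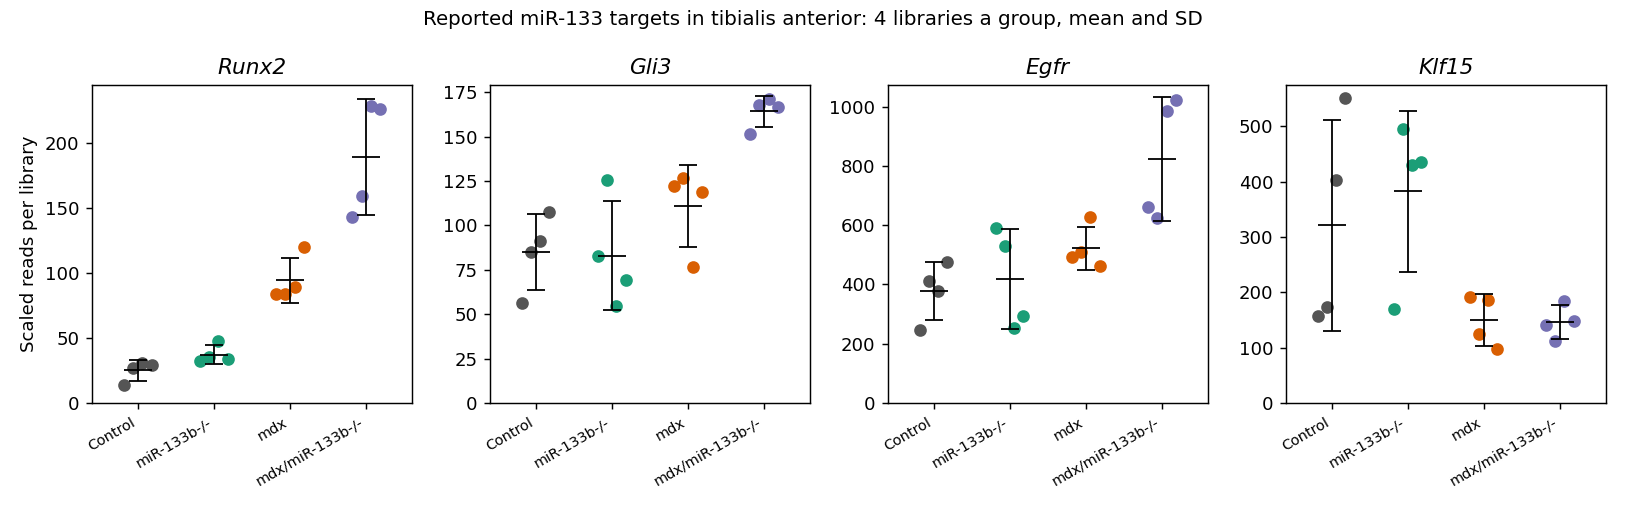
Scaled reads of Runx2, Gli3, Egfr and Klf15 in each library (points), with the group mean and SD (bars, n = 4) on linear axes that start at 0. Runx2 steps up through the 4 groups without overlap, but only narrowly from Control to miR-133b-/-. Gli3 is highest in the 4 mdx/miR-133b-/- libraries, at 151 to 172, and Klf15 is spread widely in the groups with dystrophin.

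Per kilobase of exon, which allows levels to be compared between genes, Klf15 was the highest of the 4 in Control, at 115 ± 68.3 scaled reads per kilobase. Egfr followed at 33.3 ± 8.59, Gli3 at 8.88 ± 2.22 and Runx2 at 2.83 ± 0.88 (SD, n = 4 each), and no library of one overlapped the next in that order. The order had changed in mdx/miR-133b-/-, where Egfr stood at 72.7 ± 18.5, Klf15 at 52.5 ± 10.8, Runx2 at 21.4 ± 5.04 and Gli3 at 17.1 ± 0.93. There the ranges of Egfr and Klf15 over the libraries overlapped, as did those of Runx2 and Gli3, but within a library Egfr was above Klf15 in 4 of 4 and Runx2 above Gli3 in 4 of 4. In mdx the same pairs overlapped and each order held in 2 of 4 libraries, with Klf15 at 53.7 ± 16.7, Egfr at 46.1 ± 6.37, Gli3 at 11.6 ± 2.41 and Runx2 at 10.7 ± 1.97.

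The comparison of mdx with Control asks what accompanied the loss of dystrophin while miR-133b was present. Runx2 rose 3.78-fold, 1.92 on the log2 scale (SE 0.30, 95% interval 1.30 to 2.54, adjusted p = 6.56e-05 by limma). Klf15 fell by 0.95 on the log2 scale (SE 0.38, interval -1.75 to -0.14, adjusted p = 0.0363), with overlapping groups. Gli3, at 0.39 (interval -0.17 to 0.95, adjusted p = 0.202), and Egfr, at 0.50 (interval -0.07 to 1.07, adjusted p = 0.108), did not pass. Calls were common in this comparison: limma called 66.2% of the 831 genes, 44.5% higher and 21.7% lower, so 2 calls among 4 members is close to the background. Groups did not overlap in 70.4% of genes, with mdx higher in 46.2%, and among the members only in Runx2, which had the 98th largest log2 difference of the 831.

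The call of Klf15 in mdx was lost without Control 3 (-0.77, adjusted p = 0.11), Control 4 (-0.62, adjusted p = 0.159), mdx 2 (-0.88, adjusted p = 0.0824) or mdx 4 (-0.76, adjusted p = 0.116). It was also lost after a linear trend with GC content and exon length was taken out of each library (-0.80, adjusted p = 0.0686). Egfr passed when only the Control and mdx libraries were fitted (0.50, adjusted p = 0.0348). With scaling factors computed on the listed genes (relative log expression), the median log2 difference of all genes moved from 0.44 to 0.09 and the calls from 370 higher and 180 lower to 260 and 270. Gli3 then stood at 0.04 and Egfr at 0.14, while Runx2 stood at 1.57 and Klf15 at -1.30, both still called. Those factors are set by the median ratio over the listed genes, most of which were called here, so they lack an unchanged reference.

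Markers of other cells moved with the mdx groups. In bulk RNA, fewer cells of a type and less RNA per cell cannot be told apart. The summed scaled reads of the 10 listed macrophage markers, of 15 on the list, were 1453 to 2080 in Control and 6186 to 9406 in mdx, and 9 of the 10 rose. For the 4 listed markers of fibro-adipogenic progenitors, the connective tissue precursors of muscle (Pdgfra, Lum, Fap and Col3a1, of 13), the sums were 11304 to 20498 and 32628 to 34929, and all 4 rose. Sums of the 3 listed tendon markers, of 9, were 403 to 990 and 2190 to 2860, and of the 8 listed genes of regenerating fibres, of 10, they were 1364 to 3857 and 9097 to 12664, with every gene of both lists rising. Single genes made up much of 3 of these sums. In mdx, Col3a1 averaged 30472 of 33379 scaled reads of the fibro-adipogenic sum. Lyz2 averaged 4118 of 7344 for macrophages, and Igf2 6216 of 10716 for regenerating fibres. Both listed satellite cell and myoblast genes of 9, Myog and Mymk, which are also on the regenerating fibre list, rose. The only listed endothelial marker of 10, Flt1, fell, no Schwann cell or adipocyte marker is listed, and no listed marker was at 0 in any library. The part of these cells in the rise of Runx2 was not tested.

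The effect of lacking miR-133b while dystrophin was present was read from miR-133b-/- against Control. None of the 4 members passed, and limma called 0.0% of the 831 genes, with 84 at an unadjusted p below 0.05; limma-voom, another test run on the recovered reads, also called 0, with 61 below it. Runx2 stood 0.60 higher (SE 0.30, interval -0.02 to 1.22, adjusted p = 0.498), and was higher in 4 of 4 miR-133b-/- libraries than in any Control library. At the closest, 32.0 scaled reads stood against 30.7, a separation that rests on the scaling. Groups were separated in 39 genes, 4.69% of the 831, and in that direction in 23, or 2.77%, and the difference of Runx2 was the 24th largest. Its value without each library in turn ranged from 0.35 to 0.72.

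The other members were near 0 or spread too widely for the comparison to resolve. Gli3 differed by -0.07 (interval -0.63 to 0.50, adjusted p = 0.956) and Egfr by 0.09 (interval -0.47 to 0.66, adjusted p = 0.926). The intervals leave room for changes of Gli3 and Egfr of up to about 0.6 on the log2 scale either way, and the signs of both changed when single libraries were left out. Klf15 differed by 0.34 (interval -0.46 to 1.14, adjusted p = 0.786), which ranged from 0.07 without Control 1 to 0.70 without miR-133b-/- 1. The median log2 difference of all genes was -0.07.

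The comparison of mdx/miR-133b-/- with mdx reads the loss of miR-133b in dystrophic muscle. The genes were selected on means of mdx/miR-133b-/-, so differences here may be favoured by the selection, and the p-values are a description. Runx2 rose 1.98-fold, 0.98 on the log2 scale (SE 0.30, interval 0.37 to 1.60, adjusted p = 0.0303 by limma), and was higher in 4 of 4 libraries than in any mdx library. Gli3 differed by 0.59 (SE 0.27, interval 0.02 to 1.15, adjusted p = 0.140), also without overlap between the groups, and Egfr by 0.63 (SE 0.27, interval 0.06 to 1.20, adjusted p = 0.114), with overlap; neither passed. Klf15 did not pass either, at 0.00 with an interval of -0.80 to 0.80 (adjusted p = 0.999). In this comparison 19.5% of the 831 genes were called, 7.46% higher and 12.0% lower, against 1 of 4 members higher. The groups were separated in 26.6% of genes, with mdx/miR-133b-/- higher in 86 of them, 10.3% of all, and in 2 of the 4 members. The median log2 difference of all genes was -0.04.

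The call of Runx2 lay near the threshold. It was lost without mdx 1 (0.94, adjusted p = 0.0853), mdx 2 (0.93, 0.0649), mdx 3 (0.96, 0.0758), mdx/miR-133b-/- 3 (0.88, 0.0886) or mdx/miR-133b-/- 4 (0.89, adjusted p = 0.09), while its log2 difference ranged only from 0.88 to 1.11. With the trend in GC content and exon length removed it was 0.87 (adjusted p = 0.0666), and that of Egfr fell to 0.26 (adjusted p = 0.537). Under relative log expression scaling the log2 differences were 0.94 for Runx2, still called, 0.54 for Gli3 and 0.59 for Egfr.

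**Figure D3:**
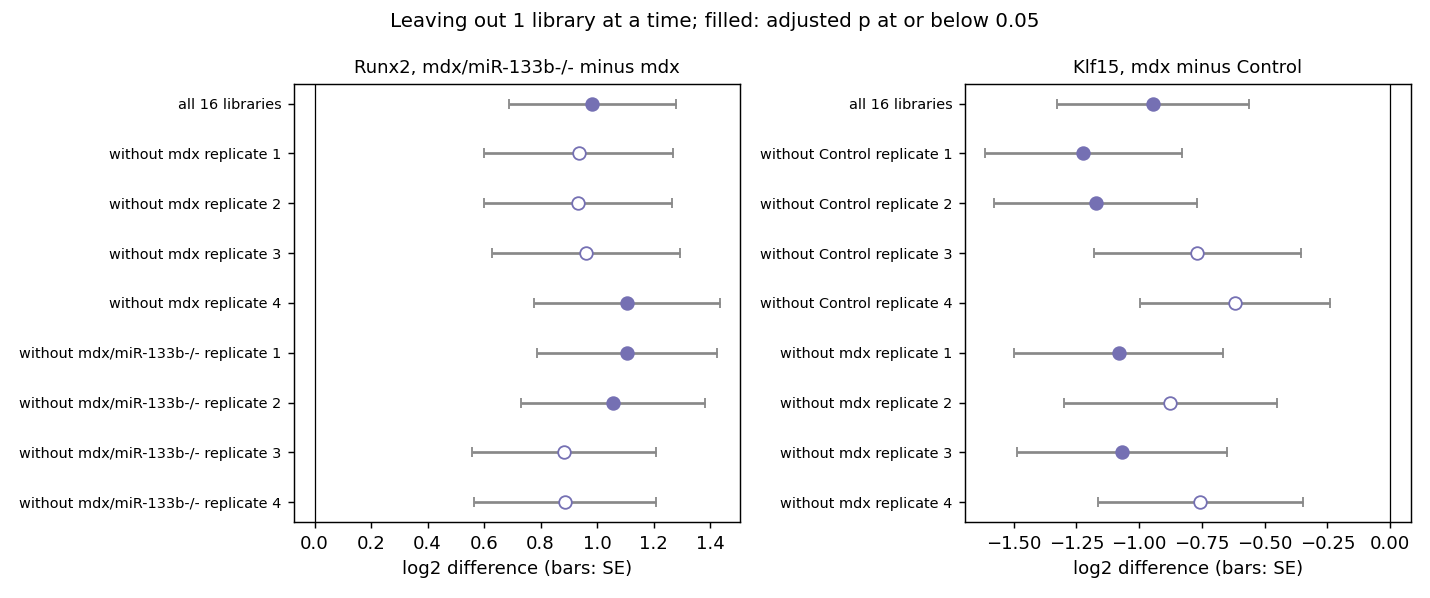
Log2 differences (points, bars are the SE) of Runx2 in mdx/miR-133b-/- against mdx and of Klf15 in mdx against Control, from all 16 libraries and without each library of the groups compared; filled points passed at an adjusted p at or below 0.05. Runx2 stays between 0.88 and 1.11 with 5 calls lost, and Klf15 between -1.22 and -0.62 with 4 lost.

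None of the 10 macrophage, 4 fibro-adipogenic, 3 tendon and 8 regenerating fibre genes was called between these groups by limma. The list medians were -0.18, 0.02, -0.10 and -0.28. Single estimates were imprecise, such as -0.69 for Csf1r (SE 0.35) and 0.41 for Mrc1 (SE 0.25), so differences in these cells were not resolved. The sums of these lists in mdx/miR-133b-/- were 3678 to 13006, 23796 to 40949, 1623 to 4157 and 8165 to 16096 scaled reads, around the mdx ranges given above and more spread. Runx2 was called higher both in mdx against Control and in mdx/miR-133b-/- against mdx, as were 15 of the 831 genes in all; the 2 comparisons share the mdx libraries.

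Whether the effect of miR-133b loss differed between the backgrounds was read from the interaction, the difference in mdx muscle minus that in muscle with dystrophin. It holds both groups whose difference selected the listed genes, so its estimates may carry the selection and its p-values are a description. No member passed, and 0.963% of the 831 genes did, 8 genes, with 172 at an unadjusted p below 0.05. The estimates were 0.38 for Runx2 (interval -0.49 to 1.26, adjusted p = 0.629), 0.65 for Gli3 (interval -0.15 to 1.45, adjusted p = 0.334), 0.54 for Egfr (interval -0.26 to 1.34, adjusted p = 0.436) and -0.34 for Klf15 (interval -1.48 to 0.79, adjusted p = 0.759). A difference between backgrounds was therefore not shown for Runx2, although it passed on one background and not on the other.

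Both changes together were read from mdx/miR-133b-/- against Control, where 91.2% of genes were called, 54.3% higher and 36.9% lower. The listed genes were selected by a difference between mdx/miR-133b-/- and miR-133b-/-, and none was called between miR-133b-/- and Control. Calls here are therefore favoured by the selection, and the p-values are a description. All 4 members passed. Runx2 rose 7.48-fold, 2.90 on the log2 scale (interval 2.29 to 3.52, adjusted p = 6.13e-07). Egfr rose 2.19-fold (1.13, interval 0.56 to 1.70, adjusted p = 0.000972) and Gli3 1.97-fold (0.98, interval 0.41 to 1.54, adjusted p = 0.00271), each without overlap, as in 78.3% of all genes (44.9% higher), while the median of all genes was 0.73. Klf15 fell by 0.95 (interval -1.75 to -0.14, adjusted p = 0.0262).

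These smaller differences moved with the processing. Under relative log expression scaling, where the median of all genes fell to 0.33, Egfr stood at 0.73 (adjusted p = 0.0147) and Gli3 at 0.58 (adjusted p = 0.0459). With the GC and length trend removed they stood at 0.52 (adjusted p = 0.0467) and 0.62 (adjusted p = 0.0239), and Klf15 at -0.50 was no longer called (adjusted p = 0.212). Klf15 also lost its call without Control 3 (-0.77, adjusted p = 0.0851), Control 4 (-0.62, adjusted p = 0.127) or mdx/miR-133b-/- 2 (-0.82, adjusted p = 0.066).

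**Figure D4:**
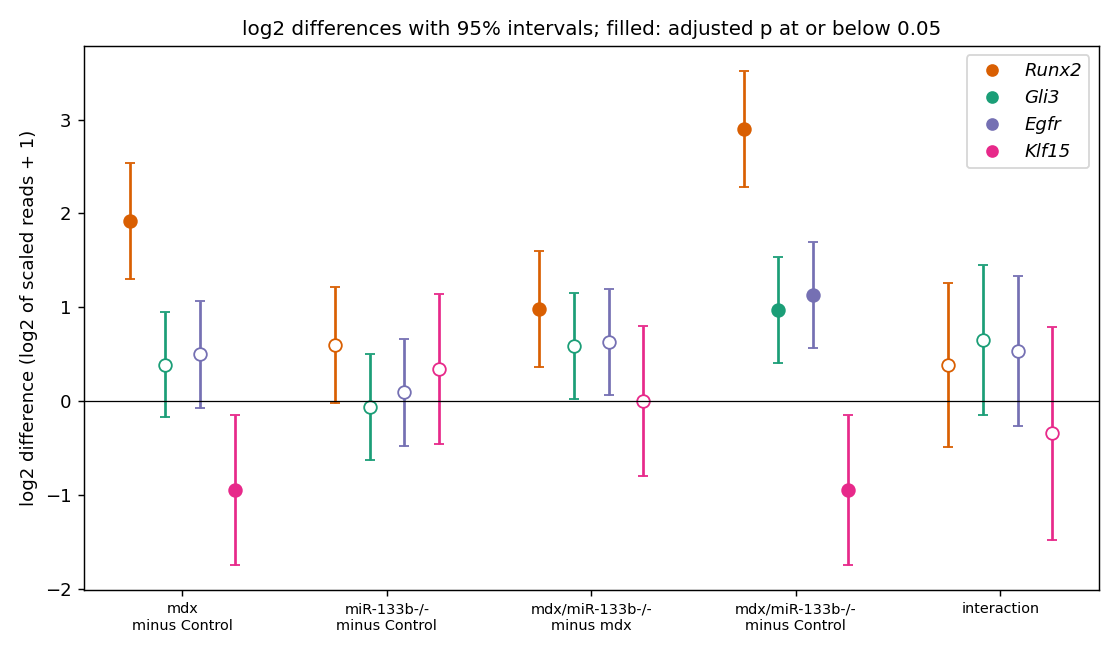
Log2 differences of the 4 genes in 4 comparisons and the interaction (points), with 95% intervals (bars); filled points passed limma's test at an adjusted p at or below 0.05. Runx2 is filled in 3 comparisons, at 1.92, 0.98 and 2.90, and no member is filled in miR-133b-/- against Control or in the interaction.

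The difference between mdx/miR-133b-/- and miR-133b-/-, by which the listed genes differ, is a description. The ratio of means was 5.08 for Runx2, 1.98 for Gli3 and 1.97 for Egfr, and Klf15 was 2.61-fold lower, with overlap for Klf15 only. These groups did not overlap in 78.6% of the genes, with mdx/miR-133b-/- higher in 47.9%. Gli3 and Egfr ranked 238 and 233 of the 831 from the smallest ratio either way, in the lower part of the list. The comparisons above share Control, mdx or mdx/miR-133b-/- libraries and are not independent of each other.

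Listed genes with a seed match were set beside those without, as counts only. In mdx/miR-133b-/- against mdx, 14 of the 121 listed genes with a 7mer or 8mer match were called higher (11.6%) and 9 lower (7.44%), with a median log2 difference of 0.07. Of the 657 without one, 43 were called higher (6.54%) and 87 lower (13.2%), with a median of -0.08. The 20 genes with an 8mer had 5 called higher, 0 lower and a median of 0.36. Genes with a match stood higher also where miR-133b was present. In mdx against Control, 53.7% of the 121 were called higher against 44.3% of the 657, with medians of 0.71 and 0.44, and 0.91 for the 8mer genes. In mdx/miR-133b-/- against Control the shares were 67.8% and 53.1%. The genes differed in other ways: median exon length was 6344 bases with a match and 4297 without, and median GC content 48.0% and 49.8%, and the part of length and GC content in these counts was not tested. In miR-133b-/- against Control no gene of any of these classes was called, and the medians were -0.06 with a 7mer or 8mer, 0.08 with an 8mer and -0.07 without a match.

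Of 33 genes on a list of earlier reported miR-133 targets, only the 4 members are listed, so the others were not analysed here. The EGF receptor pathway has 3 of its 22 genes listed: Egfr, Cbl, a ubiquitin ligase that sends the receptor for degradation, and Spred1, an inhibitor of the RAS pathway below it. None of the 3 was called in mdx against Control, with a list median of 0.24 beside 0.44 for all genes. In mdx/miR-133b-/- against mdx, Cbl rose by 0.75 (adjusted p = 0.0354) and Spred1 by 0.64 (adjusted p = 0.0377), and the list median was 0.64 beside -0.04. Cbl held 547, 558, 462 and 530 scaled reads in mdx 1 to 4 and 778, 681, 940 and 1209 in mdx/miR-133b-/- 1 to 4, without overlap. Separation in that direction was found in 10.3% of all genes.

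Of 19 genes of the Hedgehog pathway, Gli3 and Gas1, a cell-surface co-receptor of Hedgehog ligands, are listed. Gas1 differed by 0.42 in mdx against Control and by 0.46 in mdx/miR-133b-/- against mdx and passed in neither. Both were called higher in mdx/miR-133b-/- against Control, as were 54.3% of all genes. The ligands, Ptch1, Smo, Gli1 and Gli2 were not analysed here.

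Of 19 genes of the RUNX family and skeletal matrix, 3 are listed, Runx2 itself among them, and all 3 rose in mdx against Control, where 44.5% of all genes were called higher. Runx1, the relative of Runx2 that responds to loss of innervation in muscle, rose by 2.40 (SE 0.33, adjusted p = 2.42e-05), and Mmp13, a collagenase that Runx2 regulates in bone, by 3.23 (adjusted p = 0.00352). Runx1 held 72.0 to 86.6 scaled reads in Control and 318 to 542 in mdx, and Mmp13 4.48 to 22.7 and 30.6 to 260. In mdx/miR-133b-/- against mdx only Runx2 of the 3 passed; Runx1 differed by 0.85 (adjusted p = 0.0766) and Mmp13 by -0.39.

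Of 31 genes tied to KLF15 and the glucocorticoid response, Klf15, Klf5 and Slc2a4, the insulin-responsive glucose transporter, are listed, and in mdx only Klf15 passed. Klf5, a related factor, differed by 0.90 (adjusted p = 0.0858) and Slc2a4 by -0.51 (adjusted p = 0.131). Slc2a4 differed by -0.80 in mdx/miR-133b-/- against mdx (adjusted p = 0.0622) and fell by 1.31 against Control (adjusted p = 0.000578).

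Klf15 follows the daily clock in several tissues, and 6 of 19 clock genes are listed. In mdx against Control, Arntl, the activator BMAL1, rose by 0.54 (adjusted p = 0.0479), and the clock-driven genes Hlf (-1.46) and Ciart (-1.96) fell. In mdx/miR-133b-/- against mdx, Arntl rose by 1.30 (adjusted p = 0.00132), and Dbp (-1.93, adjusted p = 0.000236) and Per2 (-0.98, adjusted p = 0.0439) fell, while Klf15 stood at 0.00. The time of day of collection is not given in the sources used here. Ciart and Per2, chosen after their values were seen, were low in some of the libraries where Klf15 was low: Ciart held 77.2, 60.0, 192 and 212 scaled reads in Control 1 to 4 and 65.0, 248, 137 and 116 in miR-133b-/- 1 to 4, and Per2 held 235, 335, 669 and 554 in Control 1 to 4. Per2 in miR-133b-/- 1, at 441, was also the lowest of its group, next to 518 to 640 in the others. Dbp, Hlf and Arntl did not show this pattern. Dbp held 1555, 1485, 1244 and 824 scaled reads in Control 1 to 4. In miR-133b-/- 1 to 4 it held 1883, 776, 1624 and 1653. For Hlf the values in those groups were 212, 302, 235 and 228, then 440, 340, 539 and 429. For Arntl they were 144, 104, 112 and 94.8, then 123, 156, 110 and 107. The part of the clock in the spread of Klf15 was not tested.

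The genes most like each member were those with the smallest root mean square difference in log2 level over the 16 libraries, each gene centred on its own mean, among 782 genes compared. Nearest to Runx2 were Steap2, a metalloreductase (0.47), B4galt6, a galactosyltransferase of lactosylceramide synthesis (0.47), and Tent5a, a poly(A) polymerase (0.52), against a median of 0.985 over all genes. Against Control, the log2 difference of B4galt6 was 0.47 for miR-133b-/-, 1.88 for mdx and 2.37 for both changes, beside 0.60, 1.92 and 2.90 for Runx2. In the same order, Steap2 stood at 0.04, 1.42 and 2.15, and Tent5a at 0.13, 1.39 and 1.88. These genes were picked on the same values, so their likeness is a description. Nearest to Gli3 were Dsel (0.19), Tgif1, a transcriptional repressor of TGF-beta signalling (0.21), and Spred1 (0.24), with a median of 0.86. Nearest to Egfr were Cep170, a centrosomal protein (0.24), Ust, a sulfotransferase of glycosaminoglycans (0.24), and Ugcg, the glucosylceramide synthase (0.26), with a median of 0.89. Nearest to Klf15 were Npy1r, a receptor of neuropeptide Y (0.42), Tbc1d16 (0.47) and Hk2, a hexokinase (0.48), with a median of 1.15.

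Among the members, Gli3 and Egfr were the closest pair, at 0.32. Runx2 lay at 0.84 from Gli3 and 0.81 from Egfr, and Klf15 at 1.73 from Runx2. The distances are small partly where a gene varies little, since a flat profile would lie 0.52 from Gli3 and 0.58 from Egfr but 1.17 from Runx2 and 0.79 from Klf15.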

How the data were processed

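RNA was extracted from tibialis anterior with a Bio-Rad Aurum kit, per the labels' protocols. Per the submitters' processing notes, HISAT2 aligned the reads to GRCm38 and HTSeq counted them; tool versions, the strand setting and the depth were not given in the sources used here. The authors deposited a signal value per gene and library, whole read counts multiplied by 1 factor per library (0.459 to 1): dividing by it gave whole numbers within 0.001 read for 100% of values. Libraries were grouped by the code in the title. Identifiers of all 831 genes matched GENCODE M21.

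Log2(value + 1) was fitted in limma 3.58.1 (R 4.3.3), with 1 mean per group over 16 libraries, moderated variances with a trend on the mean, Benjamini-Hochberg adjustment over 831 genes at 0.05, and no filter. The fit was tested on simulated data. Intervals are at 95% and cover the spread between libraries. The 4 genes, the gene lists and the comparisons were chosen with earlier results of these data known. The genes named beside the 4 are the 3 nearest to each and, per list, at most 4 with the smallest p in mdx against Control and in mdx/miR-133b-/- against mdx. Per2 lies outside that rule. Its results, the values per library of clock genes, matches of 6 bases and coding matches were added after seeing the data. The result of 1 clock gene is not reported here. Alternatives covered scaling factors, pseudocounts (0.5 and 10), a minimum mean of 100, the variance trend, the libraries fitted, a replicate block, GC content and length, limma-voom, and each library left out. Libraries of 1 group were not copies of each other, since chi-square per degree of freedom was at least 38.4 in the 24 pairs.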

Additional observations from a re-analysis of the deposited data

Results flagged for a closer look

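Of 40 groups of 4 values examined (the 4 genes and the marker sums), 4 had a library whose gap to its nearest neighbour, divided by the range of the group, was above Dixon's 95% critical value, and chance gives about 1 in 20 groups. Runx2 in mdx 4 stood at 120.12 scaled reads, above the other mdx libraries at 83.8 to 88.8. Gli3 in mdx 3 stood at 76.7 scaled reads, below the others at 119 to 127. The fibro-adipogenic marker sum was 11304 scaled reads in Control 1, the lowest of its group. The tendon marker sum was 4157 scaled reads in mdx/miR-133b-/- 1, the highest of its group.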

How the results depend on the processing

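Over the 4 genes, 383 alternative values were computed; 355 kept the direction and the side of the threshold, 15 no longer passed, 1 newly passed and 12 changed sign. Egfr newly passed in mdx against Control with the groups compared only (0.50). With the GC and length trend removed, calls were lost for Klf15 in mdx (-0.80) and mdx/miR-133b-/- (-0.50) against Control and for Runx2 in mdx/miR-133b-/- against mdx (0.87), and genes called numbered 55 in the last comparison against 162, and 5 against 8 in the interaction. Relative log expression factors turned Gli3 in miR-133b-/- against Control to 0.088 and Klf15 in mdx/miR-133b-/- against mdx to -0.043, which a pseudocount of 10 turned to -0.0012; they gave 14 interaction calls, and a minimum mean of 100, which leaves out Runx2, gave 4. They also gave 323 higher and 332 lower calls in mdx/miR-133b-/- against Control, in place of 451 and 307. With single libraries left out, Klf15 ranged from -1.22 to -0.62 against Control in both mdx and mdx/miR-133b-/-, and from -0.19 to 0.14 in mdx/miR-133b-/- against mdx. Runx2 ranged from 0.88 to 1.11 there, Gli3 from -0.29 to 0.11 and Egfr from -0.10 to 0.30 in miR-133b-/- against Control. Genes called ranged from 49 to 197 in mdx/miR-133b-/- against mdx and from 7 to 110 in the interaction, the latter without miR-133b-/- 2. Counting 8mers only left 0 members with a seed match in place of 2, and 20 listed genes in place of 121. The cause of these changes was not tested.

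With the replicate number as a block no member gained or lost a call (Runx2 in mdx/miR-133b-/- against mdx 0.98, adjusted p = 0.031 by limma), and genes called there numbered 120 against 162. Libraries of the same number did not deviate together: correlations ranged from -0.283 to 0.254 over 24 pairs, 2 above 0.1, and 6 of 48 were highest with the same number. The planned edgeR test on the recovered reads was not run; limma-voom on those reads, chosen after seeing the data, changed no call of a member. Low counts limit Runx2 most, with 19 reads in Control 1.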
